A study of Mus musculus with 1037 samples.

Results

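The 8 genes described here encode the core of the Hedgehog pathway in the mouse: the ligand *Shh*, the receptor *Ptch1*, the transducer *Smo*, the inhibitors *Sufu* and *Hhip*, and the transcription factors *Gli1*, *Gli2* and *Gli3*. They were chosen by name, and each was matched through its Ensembl identifier to a single row, giving 8 of the 55335 genes in the count tables. Their levels were followed in single hair follicle cells from the end of growth into regression.

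Hedgehog signalling starts when a secreted ligand binds PTCH1 at the cell surface. Free PTCH1 holds SMO inactive, so ligand binding releases SMO, which acts in the primary cilium and frees the GLI proteins from SUFU. GLI2 is then mainly an activator, GLI3 mainly a repressor, and *Gli1*, *Ptch1* and *Hhip* are themselves transcribed in response, for which *Gli1* and *Ptch1* are widely used as readouts. In hair follicles SHH is known as a product of matrix cells at the follicle base during growth, and it drives proliferation there and in the hair germ.

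The study profiled single epithelial cells of wild-type mouse back skin with Smart-seq2, a full-length, plate-based method without molecular identifiers. It compared the last stage of follicle growth (AnaVI) with late regression (CatVI and CatVII). All cells were sorted from the outer root sheath (ORS), the outermost epithelial layer of the follicle, which also houses its stem cells, and the labels name no engineered allele or treatment in any group, although the study's methods describe an EdU pulse before anagen skin was collected. Cells of several mice were pooled before each sort, and the labels name neither animal nor age.

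AnaVI cells formed 3 sorts, LOS (labelled lower ORS, from the dermal side of the skin), MOS (labelled upper-middle ORS) and UOS (labelled upper-middle ORS too, but a separate sort by its title). CatVI cells were on 6 plates of upper ORS whose titles read P17f: plates 1 and 2 (PhagoHFSC alive), plates 3 and 4 (NonPhagoHFSC alive), plate 5 (PhagoHFSC apop) and plate 6 (NonPhagoHFSC apop). CatVII cells were in 2 sorts of upper ORS, OSalive and OSapop, where apop marks cells sorted as apoptotic or dying with annexin V and DAPI stains. Cells were kept when 2000 or more genes were detected, which left 463 of 1035: LOS 39 of 93, MOS 38 of 72, plate 1 19 of 88, plate 2 9 of 73, plate 5 15 of 85, plate 6 14 of 69, 92 OSapop cells (65.2%), and 83.6% of UOS and 80.1% of OSalive cells, the 2 largest groups. Plates 3 and 4 kept 0 of 67 and 0 of 57 cells, and no count of any of the 8 genes lay in the cells left out there.

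Each sort or plate was a single sample of pooled animals, so no comparison had a replicate and no p-value was computed. Levels are counts per 1000000 (CPM): the counts of a gene summed over the passing cells of a group, set against that group's gene counts. Limits behind a value are 95% limits from exact Poisson or binomial distributions and cover counting error only. Overlap of the limits of 2 groups is a description only, since the limits of their ratio can still exclude equal levels. Whether limits overlap or not, the variation between animals and between sorts is unmeasured. Stage, sort, plate and library depth differed together between the AnaVI and regression groups and cannot be told apart.

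The groups held 1840012 gene counts (plate 6) to 287377663 (OSalive), so that rare genes were measured far better in OSalive. A row with no symbol in the annotation took 65.5% of counts, and all rows without annotation took 79.2%. Titles repeated 40 well labels within UOS, 68 within OSalive and 52 within OSapop, so each of these sorts may join cells of more than 1 plate or run, and since the labels do not tell which cell came from which, no values by plate are given for them. In the 99 pairs of passing cells of 1 sort with the same well label, the median r of their profiles was 0.041, against 0.042 in other pairs of these sorts. The epithelial markers *Krt5*, *Krt14* and *Krt15* were counted in every group, with *Krt15* at 48.9 CPM in LOS and 997 CPM in UOS. *Cd34* was at 24.9, 21.5 and 80.6 CPM in LOS, MOS and UOS, at 1.46 to 9.71 CPM on the CatVI plates, and above 100 CPM in OSalive and OSapop. Fibroblast and dermal papilla markers (8 genes) were counted in all groups, at 1410 CPM summed in LOS and 355 CPM in UOS against 4.0 to 45.9 CPM in MOS and on the plates and 190 CPM in OSapop, with OSalive alike. Of these 8 markers, 0 were at 0 in LOS and UOS, 1 in each CatVII sort, and 4 or 5 in MOS and on each plate. *Pdgfra*, whose product CD140a the sort used to remove fibroblasts, was at 2.33 CPM in LOS, 0 in MOS and 3.06 CPM in UOS, and highest on plate 1 at 5.47 CPM. Endothelial and immune lists were also highest in LOS, at 63.3 and 23.9 CPM, as was the melanocyte list. Plate 1 held endothelial markers at 51.4 CPM, and plate 2 held nerve and Schwann cell markers at 71.5 CPM and, after LOS, the highest melanocyte sum, while these 3 lists were at 0 to 1.09 CPM on plates 5 and 6. Their part in the values of single plates was not tested.

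Several cells stood apart and touch the values below. The LOS cell of well A11 held 26.9% of all LOS counts and 11424 detected genes. UOS wells E11 and E1 held 13735 and 17256 detected genes, more than 10000, and their profiles correlated at r = 0.84. OSapop cells of wells C6 and C7 correlated at r = 0.91. The well names C6, C7, E11 and F1 are each found on more than 1 cell of these sorts, and here they mean the cell described. Values without LOS A11, UOS E1 and E11 and OSapop C7, and values without every cell with 2 or more fibroblast markers (24 LOS, 0 MOS, 15 UOS, 4 CatVI, 37 OSalive and 24 OSapop cells), are given where they move a result. The part of these cells in the results was otherwise not tested.

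Of the 8 genes, *Smo* was counted in 397 of the 463 cells, *Gli3* in 372, *Gli2* in 357, *Ptch1* in 60%, *Sufu* in 47.9%, *Gli1* in 32.6%, *Hhip* in 35 and *Shh* in 6. The median cell held counts of 4 of the 8 in each AnaVI sort. Per kilobase of transcript, *Smo* led in UOS at 11.5 CPM per kb, followed by *Gli3* at 4.44, *Sufu* at 3.89, *Gli2* at 3.84 and *Ptch1* at 3.06, with *Gli1* at 0.926, *Hhip* at 0.203 and *Shh* at 0.0206. In OSalive the order on the same scale was *Gli2* at 8.88, *Smo* at 8.28, *Gli3* at 4.31, *Gli1* at 4.2, *Ptch1* at 3.17, *Hhip* at 2.31 and *Sufu* at 2.02 CPM per kb. *Gli2* and *Gli1* thus stood higher among the members in OSalive than in UOS. The order differed between CatVI plates, with *Gli1* at 9.12 CPM per kb on plate 1 and 0.758 on plate 2.

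**Figure D1:**
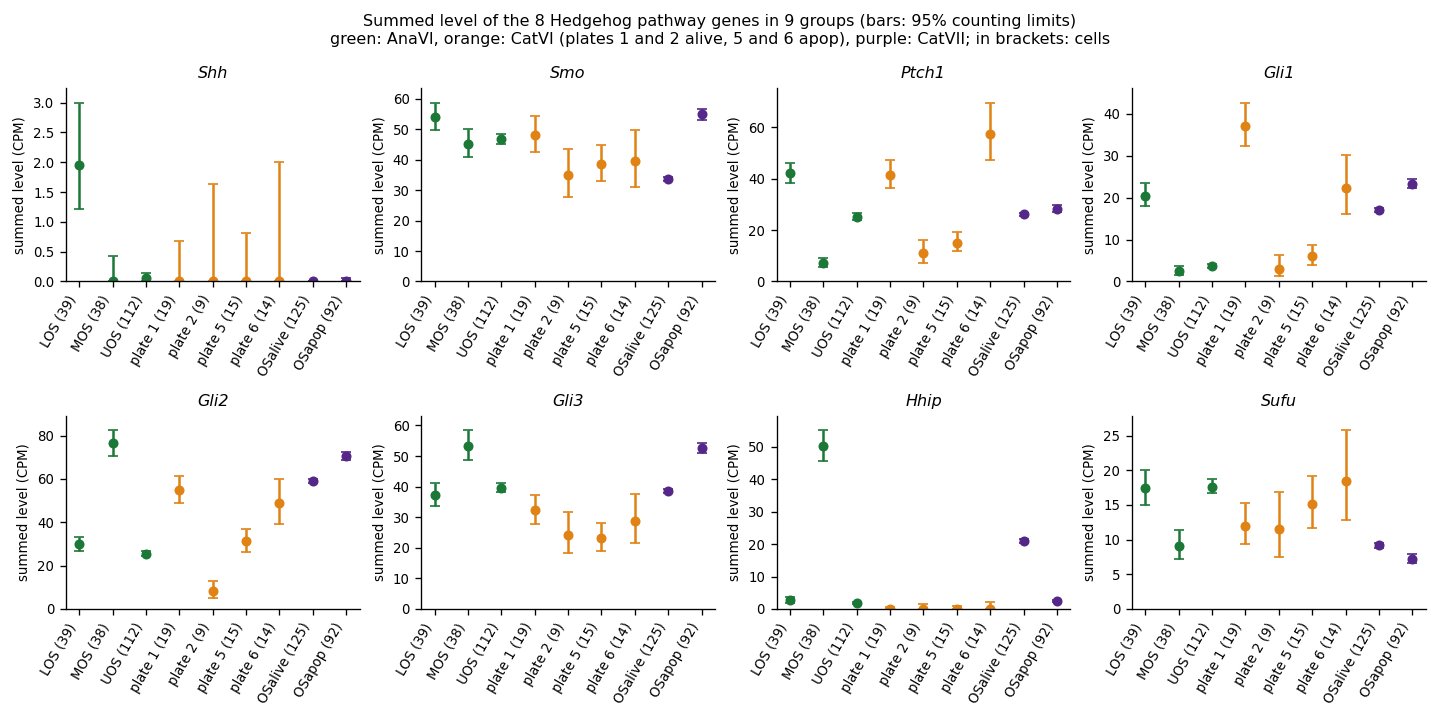
Summed level of each of the 8 genes in CPM (vertical axes, linear, starting at 0) in the 9 groups with passing cells (horizontal axes, with the number of cells in brackets). Bars are 95% counting limits. *Gli1* is at 2.46 to 6.01 CPM in MOS, UOS and plates 2 and 5 and at 17.1 to 37.2 CPM in the other 5 groups, and *Hhip* is at 50.2 CPM in MOS and 21 CPM in OSalive.

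Comparisons were made between 6 pairs of groups, counted over the genes with 100 or more counts in both groups together, and a gene is called here when its ratio passes 2-fold. CatVI is plates 1, 2, 5 and 6 summed. The comparisons with UOS share its cells, and the OSapop comparison shares OSalive, so they are not independent of each other. For LOS over UOS, 1 of 7 members was called higher beside 14.1% of all 11473 genes, and 0 were called lower beside 14.3%. For MOS over UOS, 2 of 7 were called higher beside 6.56% of 11114 genes and 1 lower beside 23.2%. For CatVI over UOS, 1 of 7 was called higher beside 12.9% of 11497 genes and 1 lower beside 24.9%. For OSalive over UOS, 3 of 7 were called higher beside 11.5% of 14159 genes and 0 lower beside 26.6%. For OSapop over OSalive, 0 of 7 were called higher beside 10.6% of 13886 genes and 1 lower beside 11.3%. For CatVI apop over CatVI alive, 0 of 6 were called higher beside 9.06% of 5704 genes and 1 lower beside 18.9%. *Shh* had too few counts in each comparison, and *Hhip* too in the last. With 6 or 7 members nothing particular to the list is read from these counts, and what follows describes single genes. The median log2 ratio of all genes was 0.04, −0.31, −0.18, −0.32, 0.12 and −0.20 in that order, against member medians of 0.23, −0.04, −0.16, 0.05, 0.26 and −0.22.

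**Figure D2:**
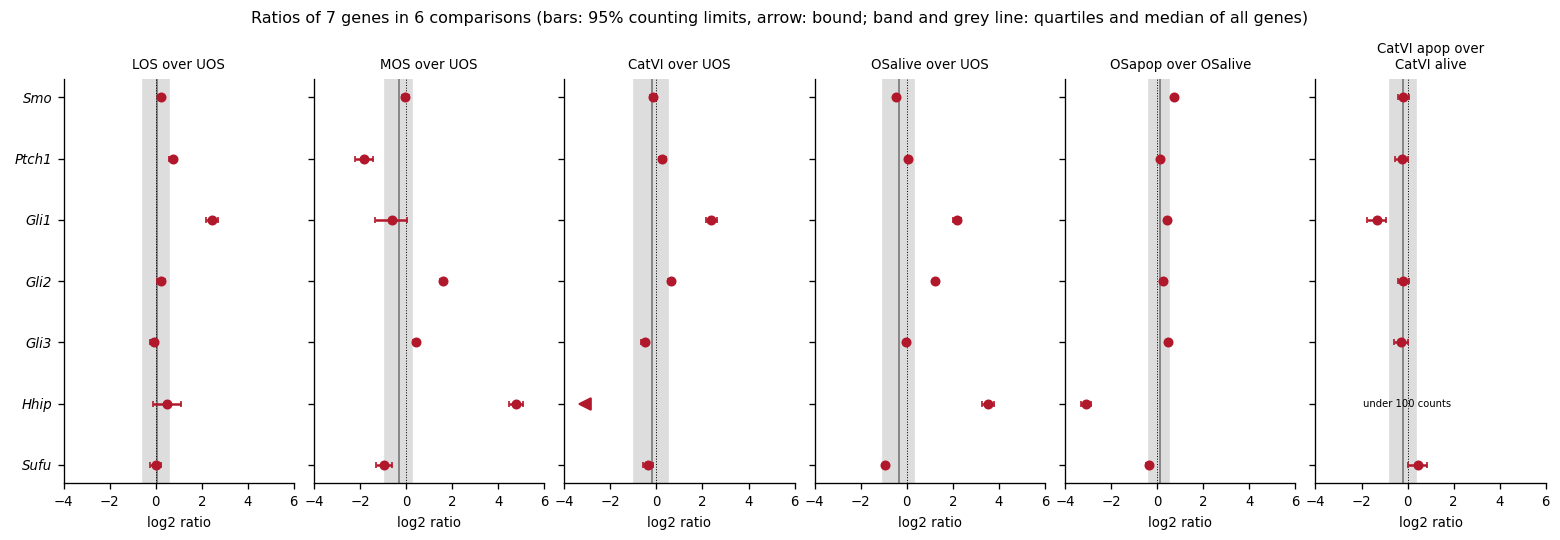
Log2 ratio (horizontal axes) of 7 of the genes (rows) in the 6 comparisons (panels), with bars for 95% counting limits, an arrow for a bound, and a band and grey line for the quartiles and median of all genes. *Gli1* lies to the right at 2.44, 2.39 and 2.18 in LOS, CatVI and OSalive over UOS, and *Hhip* at 4.77 and 3.51 in MOS and OSalive over UOS.

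*Shh* (ENSMUSG00000002633.4; chr5:28661813-28672254 on GRCm39, minus strand), which encodes the ligand, had 25 counts in all, 21 of them in LOS. They were spread over 4 of 39 cells with 2, 5, 12 and 2 counts, a level of 1.96 CPM (1.21 to 3.00). UOS had 4 counts in 2 cells (1.79%), 0.0585 CPM (0.0159 to 0.15), of which 3 counts were in well E1 that stood apart. MOS, the CatVI plates, OSalive and OSapop had none. Taken as 3 cells of the total, 0 of 38 cells allows a share of up to 7.89%, 0 of 57 up to 5.26%, 0 of 92 up to 3.26% and 0 in OSalive up to 2.4%, and the upper 95% exact binomial limits were 9.25%, 6.27%, 3.93% and 2.91%.

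The 4 *Shh* cells of LOS carried counts of 9 or 10 of the 10 matrix and inner root sheath markers, the cell types of the growing bulb. The same cells carried 9, 2, 5 and 8 of the 10 bulge and ORS markers. They held 7030 to 9971 detected genes against a LOS median of 4925, so no cell type is read from these markers. These cells also carried 3, 4, 7 and 6 of the 8 fibroblast markers, so none remained when cells with 2 or more of those were left out. UOS E1 carried 10 of 10 matrix and inner root sheath markers and UOS F1, with 1 *Shh* count, 2 of 10. Summed matrix and inner root sheath markers were at 474 CPM in LOS and 926 CPM in UOS, against 53.6 to 78.4 CPM in MOS, the CatVII sorts and plates 2 and 5, with plates 1 and 6 between. The part of these markers in the *Shh* counts was not tested. LOS over UOS was 5.07 (3.50 to 7.07) on the log2 scale, from too few counts for a call.

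*Ptch1* (ENSMUSG00000021466.12; chr13:63656142-63721412, minus strand) encodes the receptor and is itself a Hedgehog target. The 250 bases before the start of its canonical transcript, which lies inside the span of the annotated gene, are shown because they hold the only exact match to the GLI consensus GACCACCCA, read on either strand, among the 8 promoters. The window is chr13:63714093-63714342 on GRCm39 and is printed 5′ to 3′ on the gene's strand, with the match, the reverse complement TGGGTGGTC, in capitals.
Ptch1 promoter: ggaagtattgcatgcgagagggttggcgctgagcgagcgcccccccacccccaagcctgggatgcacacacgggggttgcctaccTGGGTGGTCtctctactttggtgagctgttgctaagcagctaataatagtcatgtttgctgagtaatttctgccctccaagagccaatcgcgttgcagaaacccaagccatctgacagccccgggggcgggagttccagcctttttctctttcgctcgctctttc
The same 250 bases before *Gli1*, at chr10:127177866-127178115 on the minus strand, are shown beside it because *Gli1* has the other readout promoter and holds no such match.
Gli1 promoter: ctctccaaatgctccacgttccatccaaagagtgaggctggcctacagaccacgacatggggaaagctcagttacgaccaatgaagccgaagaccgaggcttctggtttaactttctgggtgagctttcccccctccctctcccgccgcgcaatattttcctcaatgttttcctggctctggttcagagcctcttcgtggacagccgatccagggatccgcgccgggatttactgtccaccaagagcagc
Of 21757 protein-coding promoters of this length, 41 (0.188%) hold the motif. Within 2000 bases 363 (1.67%) hold it, *Ptch1* alone among the 8. Neither window overlaps an annotated exon. A match of letters is a description of the sequence, and the lack of one says nothing on GLI binding.

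*Ptch1* was at 42.2 CPM in LOS, 7.14 in MOS, 25.3 in UOS, 41.6, 11, 15.1 and 57.6 on plates 1, 2, 5 and 6, 26.2 in OSalive and 28.4 in OSapop. MOS was thus lowest, its limits (5.46 to 9.17) overlapping those of plate 2 only, and plate 6 was highest (47.2 to 69.7), with limits overlapping those of plate 1 (36.4 to 47.3). *Ptch1* was 3.55-fold lower in MOS than in UOS, a log2 ratio of −1.83 (−2.22 to −1.46), and it was counted in 15 of 38 MOS cells (39.5%) against 62.5% of UOS cells. With each cell thinned to 50000 counts the shares were 25% and 37.8%. Over all alternatives the MOS ratio stayed between −2.11 and −0.99.

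In LOS *Ptch1* was 1.67-fold higher than in UOS, at 0.74 (0.58 to 0.89), under the call. LOS without its cells with fibroblast markers had 26.4 CPM against 23.4 CPM in UOS treated alike, a ratio of 0.17. OSalive over UOS was 0.05, and CatVI over UOS was 0.26 and turned to −0.13 without plate 1. OSapop over OSalive was 0.12 and had the opposite direction in 7 of 13 alternatives, down to −0.41 without cells with fibroblast markers. On plates 1 and 6, single cells held 53.5% and 43.4% of the *Ptch1* counts. *Ptch1* in the upper ORS of both regression stages was thus not called against UOS, while single plates ran from 11 to 57.6 CPM.

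*Smo* (ENSMUSG00000001761.7; chr6:29735407-29762532, plus strand), the transducer that PTCH1 holds back, varied least. Its levels were 54.2 CPM in LOS, 45.3 in MOS, 46.7 in UOS, 48.1, 34.9, 38.5 and 39.7 on plates 1, 2, 5 and 6, 33.6 in OSalive and 54.9 in OSapop. Neighbours in the order of levels had overlapping limits throughout, although those of OSalive (32.9 to 34.2) and OSapop (53.2 to 56.7) did not. It was called in no comparison. OSapop over OSalive was highest, at 0.71 (0.66 to 0.76), and lay between 0.46 and 0.78 under the alternatives. The shares of cells with a count were 88% in OSalive and 89.1% in OSapop, and 54.8% and 72.9% after thinning. LOS over UOS was 0.21 and turned to −0.12 with scaling by the trimmed mean of M values (TMM), and MOS over UOS was −0.04 and 0.15 with scaling by annotated genes.

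*Sufu* (ENSMUSG00000025231.17; chr19:46385324-46477243, plus strand), whose product holds GLI proteins in the cytoplasm, was highest on plate 6 and in UOS and LOS, the last through a single cell, and lowest in OSapop. Levels were 17.4 CPM in LOS, 9.13 in MOS, 17.6 in UOS, 12, 11.5, 15.1 and 18.5 on plates 1, 2, 5 and 6, 9.18 in OSalive and 7.24 in OSapop. Well A11 held 55.1% of the *Sufu* counts of LOS, and LOS was at 10.7 CPM without it. LOS over UOS was −0.01 with all cells, −0.74 without the cells that stood apart and −2.39 without cells with fibroblast markers. MOS over UOS (−0.95, 1.93-fold lower) and OSalive over UOS (−0.94, 1.92-fold lower) lay just inside the 2-fold line. With TMM the MOS ratio was −1.07, past the line, and OSalive was −0.48. The shares of cells with *Sufu* were 49.1% in UOS, 44.7% in MOS and 44.8% in OSalive, and after thinning 33.3%, 37.5% and 21%.

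*Gli1* (ENSMUSG00000025407.7; chr10:127165751-127177865, minus strand), the activator that Hedgehog signalling itself turns on, differed most widely of the genes counted in many cells. Levels were 20.5 CPM (17.9 to 23.4) in LOS, 2.46 (1.52 to 3.76) in MOS, 3.78 (3.33 to 4.27) in UOS, 37.2, 3.09, 6.01 and 22.3 on plates 1, 2, 5 and 6, 17.1 (16.6 to 17.6) in OSalive and 23.3 (22.2 to 24.4) in OSapop. MOS, UOS and plate 2 had overlapping limits at the low end, as did OSapop, plate 6 and LOS further up. The limits of plate 6 (16 to 30.2) also held those of OSalive, while LOS and OSapop lay above OSalive. Plate 1 stood above all of them.

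*Gli1* was 5.44-fold higher in LOS than in UOS (2.44, 2.18 to 2.71), above 96.8% of genes. A11 held 49.1% of the LOS counts. Without the cells that stood apart LOS was at 14.3 CPM (11.8 to 17.2), UOS at 3.05 and the ratio 2.23. Without cells with fibroblast markers LOS was at 22.3 CPM, from 71 counts in 5 of 15 cells, against 2.48 CPM in UOS. *Gli1* was counted in 14 of 39 LOS cells (35.9%) and in 22.3% of UOS cells. The log2 ratio ranged from 1.92 to 3.17 over the 12 alternatives with enough counts.

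*Gli1* was 4.53-fold higher in OSalive than in UOS, at 2.18 (2.0 to 2.37), above 95.2% of genes. It was counted in 42.4% of OSalive cells, and after thinning in 26.6% of OSalive and 13.5% of UOS cells. Over the alternatives the ratio lay between 2.03 and 3.08. CatVI over UOS was 2.39 (2.14 to 2.64), but plate 1 held most of the counts and the ratio was 1.21 without it. Plates 2 and 5 had limits overlapping those of UOS. MOS over UOS was −0.62 (−1.34 to 0.02), from 21 counts in 4 of 38 MOS cells, 76.2% of them in a single cell, and was 0.81 as a mean over cells.

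In CatVII, *Gli1* in cells sorted as apoptotic was 0.44 (0.36 to 0.52) above OSalive, and was −0.27 when cells with fibroblast markers were left out. The shares of cells with a count were equal with all counts (42.4% in both), and after thinning 26.6% in OSalive and 30.6% in OSapop. On the CatVI plates the apop cells were 2.54-fold lower than the alive cells, at −1.34 (−1.76 to −0.94). The alternatives with enough counts for a call ran from −2.18 to −0.29. The alive cells were all PhagoHFSC, while the apop cells were PhagoHFSC (plate 5, 6.01 CPM) and NonPhagoHFSC (plate 6, 22.3 CPM). The direction of the ratio rests on plate 1. Without it the alive cells had 7 counts and 3.09 CPM against 10.7 CPM in the apop cells, a ratio of 1.80 (0.68 to 3.16) in the opposite direction, from fewer than 100 counts.

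*Gli2* (ENSMUSG00000048402.14; chr1:118761858-118982598, minus strand), the main activator, was at 29.9 CPM in LOS, 76.5 in MOS, 25.5 in UOS, 55.1, 8.39, 31.4 and 48.9 on plates 1, 2, 5 and 6, 59 in OSalive and 70.5 in OSapop. MOS and OSapop were highest with overlapping limits, and LOS, UOS and plate 5 lay together near the low end. MOS was 3.0-fold above UOS, at 1.59 (1.46 to 1.72), above 97.6% of genes. One cell held 38.8% of the MOS counts, and the alternatives gave 1.05 to 1.81. OSalive was 2.31-fold above UOS, at 1.21 (1.14 to 1.28), with 89.6% of cells positive against 68.8%, and 71% against 41.4% after thinning. No OSalive cell held more than 4.64% of its counts, and the alternatives gave 1.13 to 1.67. CatVI over UOS was 0.62 (0.48 to 0.76) and 0.19 without plate 1. LOS over UOS was 0.23 and −0.10 with TMM.

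*Gli3* (ENSMUSG00000021318.15; chr13:15637809-15904611, plus strand), mainly a repressor, was at 37.2 CPM in LOS, 53.4 in MOS, 39.6 in UOS, 32.3, 24.3, 23.1 and 28.8 on plates 1, 2, 5 and 6, 38.5 in OSalive and 52.6 in OSapop. It was called in no comparison, its ratios running from −0.52 (−0.68 to −0.37, CatVI over UOS) to 0.45 (OSapop over OSalive), but CatVI over UOS passed the 2-fold line, at −1.09, as a mean over cells. With all cells, UOS, OSalive and LOS had neighbouring, overlapping limits. Without the cells that stood apart LOS was at 50.9 CPM (46 to 56.2) and UOS at 40 CPM (38.4 to 41.6), and the LOS ratio went from −0.09 to 0.35. The OSalive ratio of −0.04 turned to 0.42 with TMM. The CatVI plates also held fewer positive cells, 26 of 57 (45.6%) against 90.2% in UOS, and 37.7% against 69.4% after thinning.

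**Figure D3:**
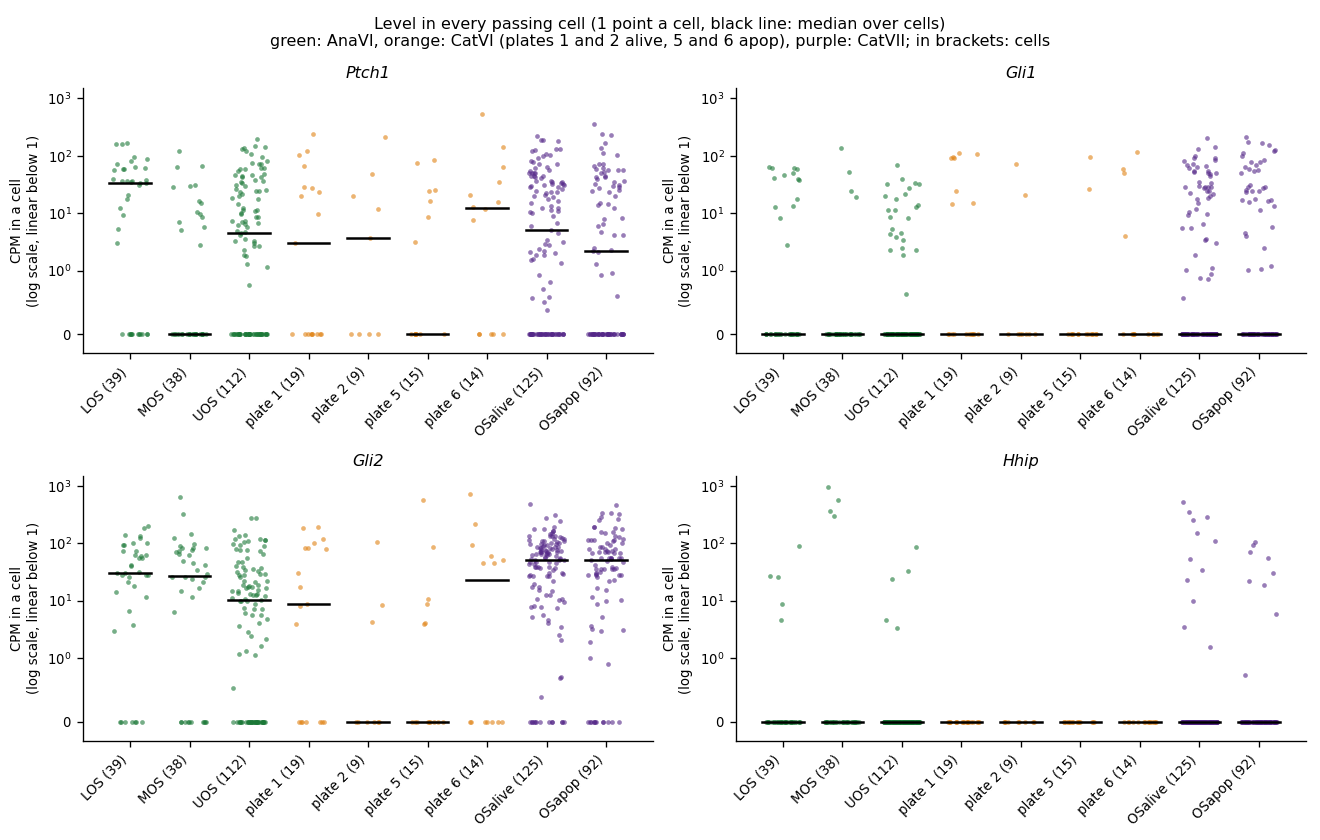
CPM of *Ptch1*, *Gli1*, *Gli2* and *Hhip* in every passing cell (vertical axes, logarithmic above 1 and linear below) in the 9 groups, 1 point a cell, with a black line at the median over cells. Most cells lie at 0 for *Gli1* and *Hhip*, and the 4 *Hhip* cells of MOS lie between 302 and 951 CPM.

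*Hhip* (ENSMUSG00000064325.4; chr8:80692480-80784658, minus strand), which encodes a surface protein that binds and sequesters Hedgehog ligands, was counted in few cells. MOS had 429 counts in 4 of 38 cells, a level of 50.2 CPM (45.6 to 55.2), and those cells ran from 302 to 951 CPM. OSalive had 6040 counts in 12 cells (4 to 1813 each), 21 CPM. LOS had 28 counts in 5 cells (2.61 CPM), UOS counts in 5 cells (1.84 CPM) and OSapop 181 in 9 cells (2.48 CPM), with overlapping limits for these 3 sorts. The 4 CatVI plates had 0 in 57 cells, which allows a share of up to 5.26% as 3 cells of the total (6.27% as the exact upper limit).

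*Hhip* was 27.2-fold higher in MOS than in UOS (4.77, 4.48 to 5.07) and 11.4-fold higher in OSalive (3.51, 3.26 to 3.78). The top cell held 62% of the MOS, 30% of the OSalive and 80.2% of the UOS counts. That UOS cell was E11, without which, and without E1, UOS had 25 counts in 4 cells (0.393 CPM), and the ratios were 7.0 and 5.74. OSapop was 8.48-fold lower than OSalive (−3.08, −3.31 to −2.87) while the share of positive cells was alike, 9.78% against 9.6%. Over the alternatives that ratio lay between −3.42 and −1.73. With its 0 counts set to a floor of 3, CatVI was 8.66-fold lower than UOS (−3.11), and the exact upper limit of the log2 ratio was −2.79. This rests on E11, since without the cells that stood apart the same floor gave 1.85-fold (−0.88, upper limit −0.48), from too few counts for a call. In LOS no *Hhip* count was left without the cells with fibroblast markers. The shares after thinning, 9.38% in MOS, 7.26% in OSalive, 7.06% in OSapop, 17.4% in LOS and 1.8% in UOS, kept UOS lowest of these.

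**Figure D4:**
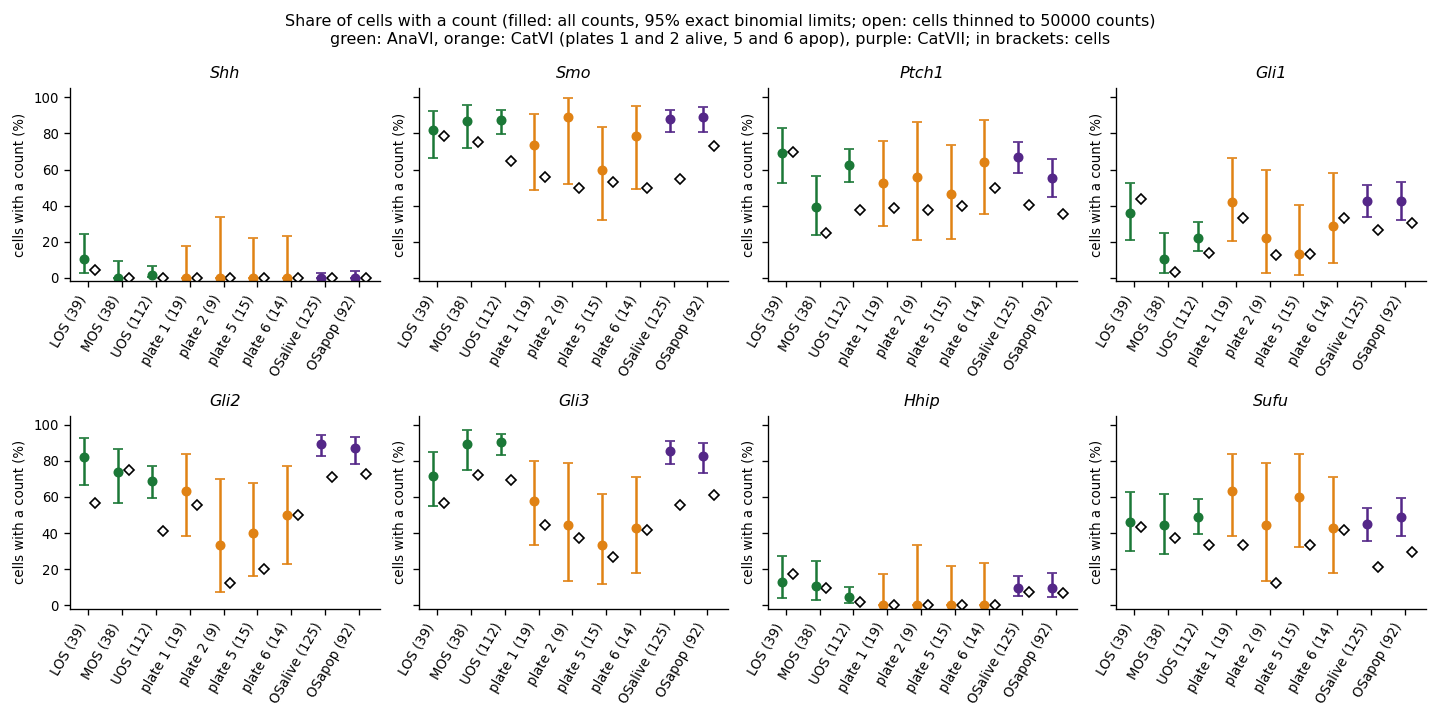
Percentage of passing cells with a count of each gene (vertical axes) in the 9 groups. Filled points use all counts with 95% exact binomial limits, and open points use cells thinned to 50000 counts. With all counts, *Gli1* is counted in 42.4% of OSalive and 42.4% of OSapop cells and in 10.5% of MOS cells. After thinning it is counted in 26.6% of OSalive and 30.6% of OSapop cells.

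Members were also compared within cells, as a description since depth raises the chance of counting any gene. *Gli1* was counted in 11 of the 12 *Hhip* cells of OSalive against 37.2% of its other cells, and after thinning in 55.6% of 9 against 24.3%. In UOS the counts were 5 of 5 against 18.7%, and in OSapop 7 of 9 against 38.6%. LOS had 2 of 5 against 35.3%, and MOS 2 of 4 against 5.88%. After thinning, UOS gave 100% against 11.9%, OSapop 66.7% against 27.8%, LOS 50% against 42.1% and MOS 33.3% against 0.0%, each from few *Hhip* cells. *Gli1* was likewise counted in 50% of *Ptch1* cells of OSalive against 26.8% of the others, in 28.6% against 11.9% in UOS and in 52.9% against 29.3% in OSapop. LOS gave 48.1% against 8.33%, and MOS 20% against 4.35%. After thinning, OSalive gave 38% against 18.9% and UOS 21.4% against 8.7%. LOS gave 50% against 28.6% after thinning, OSapop 43.3% against 23.6% and CatVI 36.4% against 16.1%. MOS gave 0.0% against 4.17%, with only 1 *Gli1* cell left after thinning. The share of cells with *Gli1* was thus higher beside *Ptch1* after thinning in OSalive, UOS, LOS, OSapop and CatVI. It was also higher beside *Gli2* after thinning in these groups, so this was not particular to *Ptch1*. Beside *Gli2*, OSalive gave 31.8% against 13.9%, UOS 19.6% against 9.23% and OSapop 33.9% against 21.7%. LOS gave 46.2% against 40% and CatVI 45% against 12.1%. MOS had too few *Gli1* cells to tell, and these shares were not tested.

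Over the 9 groups, *Ptch1* and *Gli1* ran together on the log2(CPM + 1) scale, with Pearson r 0.86 and Spearman rho 0.85. Without MOS and plate 2, the groups farthest from the median, r was 0.69 over 7. These points differ in depth and share stages and may share animals, so the values are descriptions. Of 9440 genes with a count in 75 or more cells, those whose levels followed *Gli1* most closely over the 9 groups were *Dtx3* (r 0.94), *Srgap1* (0.94) and *Zbtb20* (0.93), and those for *Ptch1* were *Scube3*, *Arhgap26* and *Myh10* (0.94 each). For *Smo* they were *Pfdn2* (0.95), *Isyna1* (0.93) and *Gpn1* (0.92), for *Gli2* *Pmm2* (0.95), *Erf* (0.94) and *Pcdhgb6* (0.94), and for *Gli3* *Ano6* (0.97), *Pcsk6* (0.96) and *Setbp1* (0.95). For *Hhip* they were *Sertad1* (0.94), *Eral1* (0.92) and *Hspa1b* (0.91), and for *Sufu* *Ntmt1* (0.96), *Srek1* (0.93) and *Tpr* (0.93). *Shh* had too few positive cells. *Scube3* encodes a secreted protein of a family that aids Hedgehog release, and it was one of 54 other pathway genes counted below.

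Those 54 genes cover ligand release, receptors and co-receptors, transduction, the cilium and reported targets. Of those with 100 counts, 7 of 44 were called higher and 9 lower in LOS over UOS, beside 14.1% and 14.3% of all genes. In MOS over UOS it was 3 and 13 of 42 beside 6.56% and 23.2%, in CatVI over UOS 6 and 9 of 43 beside 12.9% and 24.9%, and in OSalive over UOS 3 and 7 of 45 beside 11.5% and 26.6%. In OSapop over OSalive it was 2 and 2 of 44 beside 10.6% and 11.3%, and in CatVI apop over alive 4 and 5 of 25 beside 9.06% and 18.9%. Their median log2 ratios were −0.06, −0.43, 0.0, −0.19, 0.18 and −0.24, beside the medians of all genes given above.

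Among co-receptors, *Cdon*, whose product binds SHH with PTCH1, was at 35.3 CPM in UOS against 8.3 in LOS (−2.09) and 5.82 in CatVI (−2.60). *Gas1*, another co-receptor, was −2.08 in CatVI over UOS, down to 53.3 CPM, and *Boc*, related to *Cdon*, 1.43 in OSalive over UOS, where UOS was at 56.1 CPM. *Gpc4*, a glypican, was 1.41 above UOS in MOS, and *Gpc3* was −2.78 in OSapop over OSalive. *Cdon*, *Boc* and *Gas1* were all below UOS in LOS (−2.09, −1.19 and −1.54), in MOS (−0.9, −0.43 and −1.09) and in CatVI (−2.60, −0.99 and −2.08). The median of all genes was 0.04, −0.31 and −0.18 in these comparisons. *Cdon* and *Boc* in MOS and *Boc* in CatVI were not called. In OSalive over UOS *Cdon*, *Boc* and *Gas1* were at 0.97, 1.43 and −0.44, beside a median of all genes of −0.32.

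For ligand release, *Scube2* was at 59.9 CPM in CatVI and 32.5 CPM in OSalive against 5.4 CPM in UOS, log2 ratios of 3.47 and 2.59, the highest of the list in both. In CatVI it was lower in apop than in alive plates (23 against 89.9 CPM, −1.96). *Hhat*, which attaches palmitate to the ligand, was at 0.497 CPM in CatVI against 7.81 in UOS (−3.97). *Scube1* was 2.62 in LOS over UOS, and *Scube3* and *Disp1*, which releases lipid-bearing ligand, were −2.97 and −1.92 in MOS. Among transduction and cilium genes, *Spop*, an adaptor for ubiquitination of GLI proteins, was −2.13 in OSalive over UOS, and *Mosmo* 1.24 in CatVI. *Spopl* (−2.18), *Mgrn1* (−1.85) and the ciliary motor gene *Kif3a* (2.41) were among the extremes of CatVI apop over alive, with *Gas1* at 1.85 there. *Efcab7* and *Stk36* were at −1.02 and −0.71 in OSapop over OSalive.

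Of the reported targets, *Foxm1*, a regulator of mitotic genes, was at 18.1 CPM in LOS against 1.24 in UOS (3.86), and 1.63 above UOS in MOS and 2.29 in OSalive. The proliferation markers (4 genes) were highest in LOS, and at 43.2, 41 and 44 CPM summed in MOS, UOS and OSalive, and their part in the *Foxm1* values was not tested. *Bmp4* was 2.56 in LOS, where *Bcl2* and *Sostdc1* were −1.86 and −3.0. *Sostdc1* was 2.53 in CatVI apop over alive. *Mycn* was −3.27 and *Ccnd1*, a cyclin of the G1 phase, 1.09 in MOS over UOS. *Rab34* was −1.66 in OSalive, and *Ccnd2* and *Bcl2* were 1.45 and 0.93 in OSapop over OSalive. Target genes other than the members thus went both ways in LOS and MOS.

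**Figure D5:**
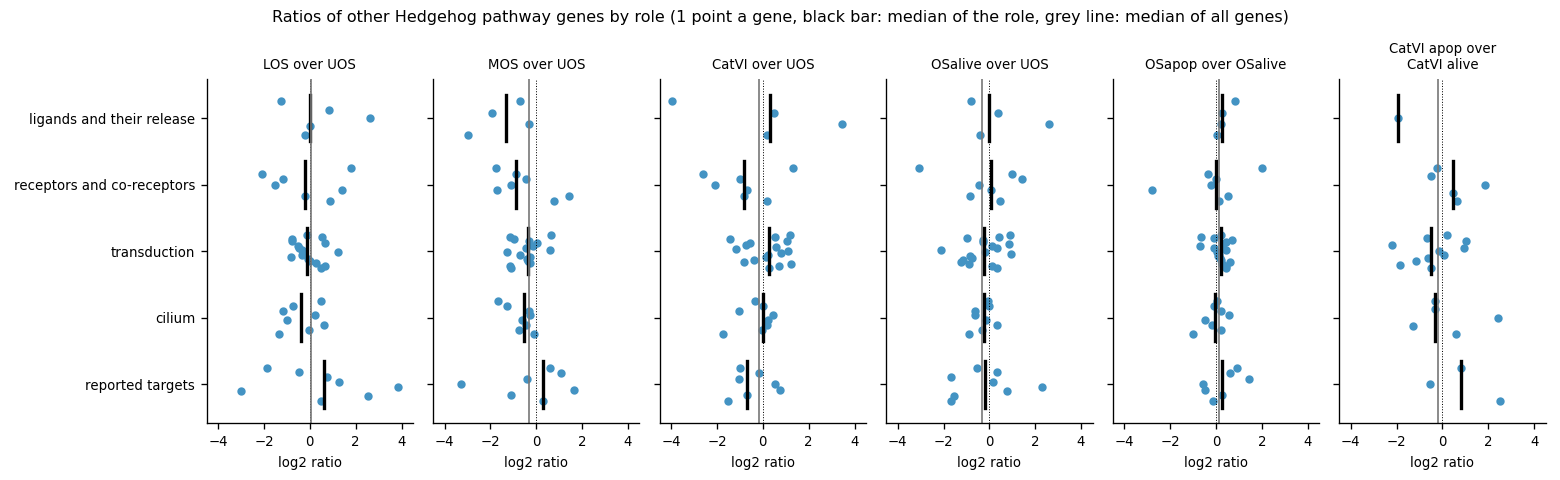
Log2 ratio (horizontal axes) of the other Hedgehog pathway genes with 100 or more counts, 1 point a gene, by role (rows) in the 6 comparisons (panels), with a black bar at the median of the role and a grey line at the median of all genes. The points spread to both sides, and the median of the whole list lay between −0.43 (MOS over UOS) and 0.18 (OSapop over OSalive).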

How the data were processed

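Single cells from AnaVI, CatVI and CatVII mouse skin had been profiled with Smart-seq2 by the authors. Per the study's methods and the submitters' processing notes, reads were trimmed, aligned with STAR 2.6 to mm39, quantified with Salmon 1.4.0 and summed to genes with tximport in R 3.6.1. The authors deposited 1 table of estimated counts per gene and cell, of which 0.471% of values were not whole, and these were rounded here. Wells of poor amplification or with several cells had been removed by the authors with qPCR for *Gapdh*, and no doublet caller was run here.

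Gene names and positions came from GENCODE M39 on GRCm39 (93.3% of identifiers matched), the same assembly as mm39. Promoter sequences were read from that genome. A cell passed with 2000 or more detected genes. Spike-ins were left out of totals. Counts of passing cells were summed per group and scaled to CPM, with no pseudocount other than a floor of 3 counts for an empty group, and 1 CPM for patterns across groups. Poisson, Clopper-Pearson and binomial-split limits were exact, at 95%, and cover counting error only, since PCR copies of 1 molecule are counted as separate reads. Genes were called past 2-fold with 100 or more counts over both groups. No test was possible, since each group was 1 sample of pooled animals. The comparison was run on simulated group sums with Poisson counting error only, in which the changes set were well past 2-fold and in well-counted genes. There 200 of 200 changed genes had the right sign in each of the 6 comparisons and 194 were called for OSalive over UOS. Spread between cells, animals and sorts was not simulated, so this checks the calculation and not the calls in these data.

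The genes named were all 8 members, in each comparison the 3 highest and 3 lowest ratios of the pathway list with 100 counts, the 3 genes most like each member, and markers beside a result. One item that this rule would name is not reported here. The members and lists were chosen with earlier results of these data known. Alternatives were other scalings (annotated genes only, median of ratios, and TMM in edgeR 4.0.16 with R 4.3.3), mean over cells, thinning to 50000 counts, other filters on cells and genes, the top cell or fibroblast-marker cells left out, plates left out, and the cells that stood apart left out, the last chosen after seeing the data. Calculations were run in Python 3.11.15 with scipy 1.17.1, pandas 2.3.3 and numpy 2.4.6. One cell titled OSapop but labelled CatVI was placed in no group.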

Additional observations from a re-analysis of the deposited data

Results flagged for a closer look

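The cell titled OSapop but labelled CatVI, which entered no comparison, held 16 counts of *Gli2* and 6 counts of *Gli3*. The log2 ratio of apop over alive cells for *Gli1* was higher in CatVII than in CatVI by 1.78, the apop cells being above the alive cells in the first and below them in the second, and this difference was not tested. The CatVI apop and alive cells also differed in plate and Phago title. Without plate 1 the CatVI ratio was 1.80, from fewer than 100 counts, and so above 0 too. For *Sufu* the same difference was −0.78, again with opposite directions in the 2 stages and not tested. Its CatVII ratio of −0.34 turned to 0.54 as a mean over cells and 0.35 after thinning, the direction of CatVI.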

How the results depend on the processing

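Where 100 counts were left, no ratio of a called member turned its direction under an alternative run. Under that minimum *Gli1* in CatVI apop over CatVI alive turned from −1.34 to 1.80 without plate 1. Of the counts of members past 2-fold, 71 values under an alternative stayed within 1.5 times the main count and 15 did not. For LOS over UOS the count was 1, and 2 with the mean over cells, with the top cell left out, without cells with fibroblast markers, and with a minimum of 20 counts. For MOS over UOS it was 3, and 1 after thinning and 5 with the top cell left out. For CatVI over UOS it was 2, and 0 after thinning, 1 with the top cell left out, 1 without cells with fibroblast markers and 1 without the cells that stood apart, an alternative chosen after seeing the data. For CatVI apop over CatVI alive it was 1, called lower, and 0 with the mean over cells and after thinning. With one plate left out it was 0 without plate 5 and 1, again lower, without plate 2. It was 2 without plate 1, both called higher, and 2 without plate 6, both called lower. *Ptch1* and *Gli2*, at −0.25 and −0.18 with all plates, ran up to 1.31 and 2.12 over the alternatives. The causes were not tested, except that thinning leaves fewer genes with enough counts. MOS over UOS split into 2 higher and 1 lower by total counts and 2 and 2 with TMM, which put the median of all genes at −0.43 rather than −0.31. For OSalive over UOS the median of ratios moved it from −0.32 to 0.13. Of the ratios of single members 375 stayed within their counting limits and the others moved, and of shares of cells 48 stayed and 24 moved.

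No paired analysis was possible because each group was 1 pooled sample and the results come from no test. Few counts limit *Shh*, *Hhip* on the CatVI plates and *Gli1* on plate 2, and the lack of replicate sorts limits every ratio.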
